A study of Arabidopsis thaliana with 39 samples.

Results

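The genes followed across the study were TSO2 (AT3G27060), RNR1 (AT2G21790), RNR2A (AT3G23580), TK1a (AT3G07800) and TK1b (AT5G23070), 5 genes that encode subunits of ribonucleotide reductase and the thymidine kinases of Arabidopsis thaliana. They were taken by locus identifier, and all 5 were present in each of the 4 tables, among 28775 genes listed for each seedling set and 33562 for shoot apices. Ribonucleotide reductase makes deoxynucleotides from ribonucleotides, the step that limits the supply of building blocks for DNA synthesis. A large subunit (R1, from RNR1) carries the catalytic site, and a small subunit (R2, from TSO2 or RNR2A) carries the radical that starts each reaction. Thymidine kinase feeds the same pool by salvage, putting a phosphate on thymidine (TK1a and TK1b). Both enzymes are known for activity in dividing cells and for a part in DNA repair.

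RNA was sequenced from 7-day-old seedlings in 3 sets that carried a spike-in, and from dissected shoot apices without one (30 apices per sample). Plants grew in 16 h of light per day. Set 1 held wild type Col0 and the single mutants fld and ld. Set 2 held Col0, ld, pol2a and the double mutant ld pol2a, set 3 held Col0 and ld, and the apex set held the same genotypes as set 2. Each of the 13 groups had 3 libraries, 39 in all. LD (LUMINIDEPENDENS) and FLD act in the autonomous flowering pathway, and POL2A is the catalytic subunit of DNA polymerase epsilon, which copies the leading strand. No source used here names the alleles, and the labels name no chemical treatment. Libraries named abo carry pol2a in their titles.

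Library depth, in units of 1e6 reads, was 10.4 to 14.4 for set 1, 13.2 to 35.0 for set 2, 23.1 to 37.8 for set 3 and 11.95 to 21.1 for apices. Reads of the seedling sets were recovered from the signal. FLD was at a signal of 64.5 ± 7.85 in Col0 and 10.5 ± 5.40 in fld (SD, n = 3). In set 2, POL2A was 184 ± 0.259 in Col0 and 304 ± 14.9 in pol2a, so its level does not check the pol2a label. LD was at 17.9 ± 3.35 CPM in Col0 apices and 8.34 ± 3.64 in ld apices, and at a signal of 182 ± 14.8 in Col0 and 316 ± 14.8 in ld of set 2. In set 1 LD was at 64.6 ± 0.993 in Col0 and 367 ± 15.4 in ld, with a log2 difference of 1.26 from the median gene (adjusted p = 2.89e-12 by limma). The LD level therefore does not check the ld label in seedlings. In set 1 the fld libraries 1 and 3, and in set 3 the Col0 libraries 1 and 2, differed by less than the sampling noise of reads (0.944 and 0.605 of the chi-square expected per degree of freedom). They were kept as separate samples. A fit that counted each pair as 1 sample changed no call among the 5 genes, which does not show that the libraries are independent. In sets 1 and 2 the weakest direction of variation within groups held 0.0164% and 0.0962% of that variation. With this and the close pairs, p-values in sets 1, 2 and 3 may be too small. Nothing says that replicates came from separate sowings, so each p-value reflects spread among libraries that may be technical.

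The 5 genes lie apart in the genome (TAIR10.1 coordinates; exon counts are distinct annotated intervals). TSO2 lies on chromosome 3 at 9979841-9981620, minus strand, with 2 exons and a coding length for 332 amino acids. RNR1 lies on chromosome 2 at 9293261-9297861, plus strand, with 17 exons and 816 amino acids. RNR2A lies on chromosome 3 at 8459838-8462815, plus strand, with 9 exons and 341 amino acids. TK1a lies on chromosome 3 at 2489387-2491180, minus strand, with 4 exons and 238 amino acids. TK1b lies on chromosome 5 at 7741792-7742978, plus strand, with 1 exon and 282 amino acids. The coding sequences of the paralogs TSO2 and RNR2A were 67.6% identical, with no identical run longer than 13 bases, and those of TK1a and TK1b 66.7%, with none longer than 11 bases. RNR2A shares 153 bases (9.05% of its exon length) with AT3G23570 on the opposite strand, and TK1b shares 39 bases (3.61%) with TGH. No source used here says if counting was strand-aware, so reads in those stretches are uncertain.

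Sequences before each gene were searched for letters tied to DNA synthesis and DNA damage control: E2F (TTTCCCGC, TTTCGCGC, TTTGCCGC or TTTGGCGC, on either strand), the factor of S-phase genes, and SOG1 (CTTNNNNNNNAAG, a palindrome), the plant DNA damage regulator. In the 250 bases upstream of the first annotated mRNA start, none of the 5 genes held either motif, against 2.13% of 31343 promoters for E2F and 9.46% for SOG1. The mRNA of TK1b starts 106 bases inside its annotated gene, and the 250 bases before the gene start, searched afterwards, held 0 matches as well. A second window, the 500 bases before the start codon, was chosen after the first gave no match. There TSO2 and RNR1 each held 1 E2F and 1 SOG1 match, and RNR2A, TK1a and TK1b held none (0), against 2.95% and 20.3% of 27440 genes. Of these sites, the RNR1 SOG1 match starts upstream of the annotated transcript and runs across its start, and the other 3 lie within it. Motif letters are in capitals, with the bases around them in lower case, on the gene's strand and 5′ to 3′. The sites are shown because they separate the genes by sequence, and a match is a description, not evidence of binding.
TSO2 E2F, chr3:9981513-9981540, first base 473 before the start codon: taaaacacatTTTGGCGCgtgtaacatc
TSO2 SOG1, chr3:9981279-9981307, 242 before the start codon: cccttcatCTTCCTCAACAAGcttttttc
RNR1 E2F (motif on the opposite strand), chr2:9293261-9293288, 258 before the start codon: ctagaagctgGCGGGAAAatcccaaaac
RNR1 SOG1, chr2:9293247-9293275, 274 before the start codon: ataggctcCTTCTCCTAGAAGctggcggg
The RNR1 matches lie next to each other, so the printed stretches overlap. TK1a, whose transcript rose with TSO2 in the results that follow, held neither motif in these windows.

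In pol2a against Col0, TSO2, TK1a and RNR1 rose in seedlings of set 2 and in shoot apices, and RNR2A passed the test in neither. The values come first, in spike-in scaled signal for set 2 and in TMM-scaled CPM (counts scaled to library size) for apices. The signal has the form of counts divided by 1 size factor per library.

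**Figure D1:**
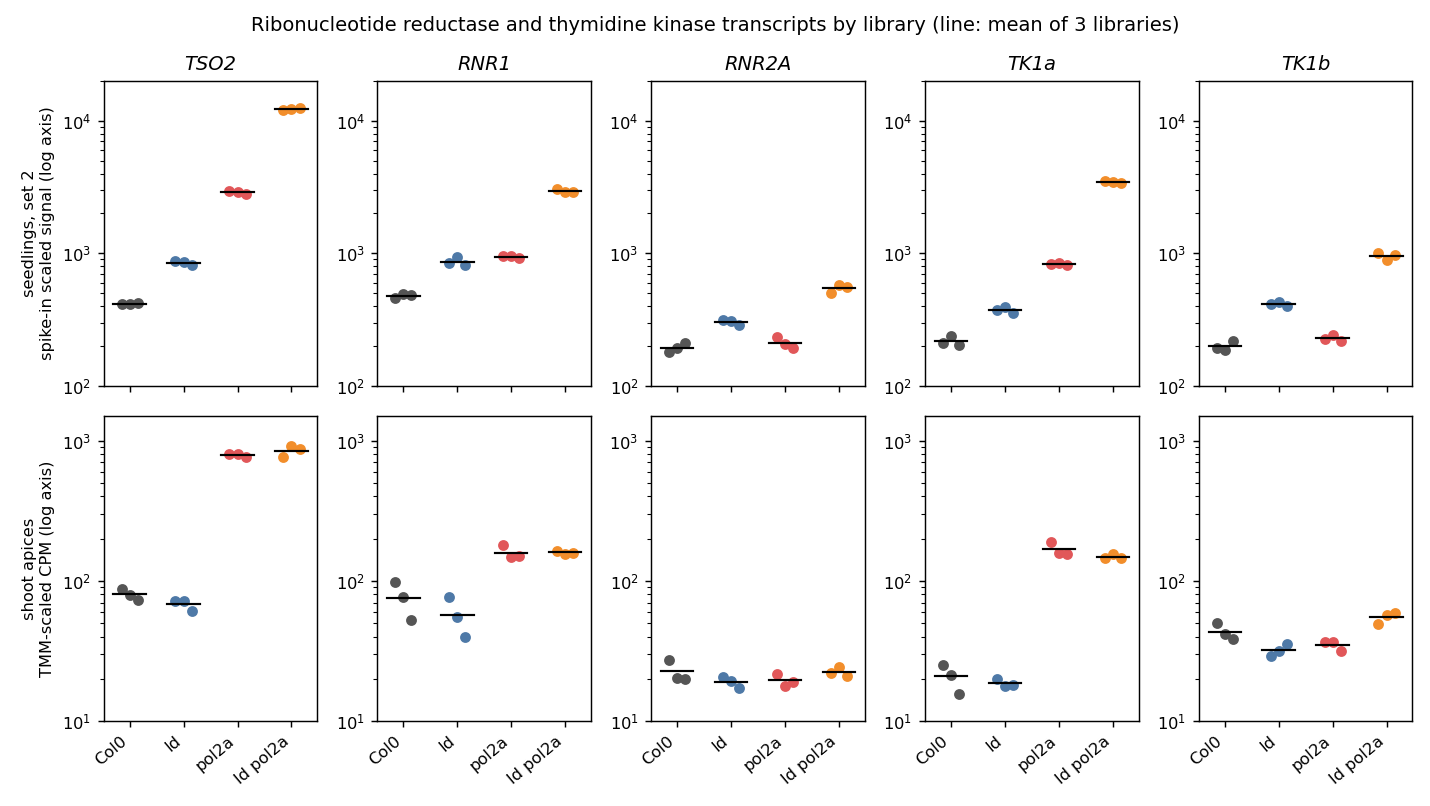
Levels of the 5 genes in each library of set 2 (spike-in scaled signal, log axis, upper row) and of shoot apices (TMM-scaled CPM, log axis, lower row) for Col0, ld, pol2a and ld pol2a. Points are libraries and lines are means of 3. TSO2 sits at 413 to 420 in set 2 Col0 and 2830 to 2935 in pol2a, and RNR2A libraries of Col0 and pol2a overlap.

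TSO2 was at a signal of 415, 413 and 420 in the Col0 libraries of set 2 and at 2935, 2904 and 2830.1 in pol2a. It was 876, 866 and 816 in ld and 12106, 12353 and 12521 in ld pol2a. All 3 pol2a libraries lay far above Col0, and ld pol2a above them. The spike-in scale fold of pol2a over Col0 was 6.93 (log2 2.79 ± 0.04 SE; limma, adjusted p = 5.53e-22). In apices TSO2 stood at 87.7, 79.1 and 73.0 CPM in Col0, at 72.0, 71.7 and 61.1 in ld, at 803, 808 and 772 in pol2a and at 766, 915 and 869 in ld pol2a. The pol2a effect there was 9.94-fold (log2 3.31 ± 0.13; edgeR, adjusted p = 1.75e-08). TSO2 ranked 41st from the highest of 18705 genes tested in apices and 50th of 19444 in set 2 on the spike-in scale.

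TK1a was at a signal of 209, 236 and 204 in Col0, 376, 394 and 356 in ld, 837, 840 and 817 in pol2a, and 3520.003, 3477 and 3400.1 in ld pol2a of set 2. The pol2a libraries did not overlap with Col0, at 3.83-fold (log2 1.94 ± 0.06; limma, adjusted p = 5.42e-17). In apices TK1a stood at 25.2, 21.4 and 15.6 CPM in Col0, 19.9, 17.6 and 18.0 in ld, 189, 158 and 155 in pol2a, and 145, 156 and 145 in ld pol2a. Libraries of pol2a again stood apart, with an 8.07-fold rise (log2 3.01 ± 0.16; edgeR, adjusted p = 2.59e-07). RNR1, the large subunit, was at 460, 492 and 488 in Col0 and 959, 956 and 924 in pol2a in set 2 (1.97-fold, log2 0.98 ± 0.05; limma, adjusted p = 1.33e-12). It was 843, 939 and 810.4 in ld and 3071.725, 2898 and 2919 in ld pol2a. Its apex values were 97.4, 76.1 and 52.8 CPM in Col0 and 180, 147 and 150 in pol2a, which did not overlap, with 76.3, 55.1 and 39.7 in ld and 163, 156 and 159 in ld pol2a. The 2.11-fold apex change (log2 1.07 ± 0.23; edgeR, adjusted p = 0.0181) lost its call without Col0 library 2 (adjusted p = 0.0638), Col0 library 3 (0.0526) or pol2a library 1 (0.0652).

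RNR2A, the other R2 gene, did not pass the test in pol2a. Its signal in set 2 was 181 to 210 in Col0 and 194 to 233 in pol2a, and the libraries overlapped, while ld stood at 287 to 317 and ld pol2a at 502 to 579. The log2 change was 0.12 (95% interval -0.05 to 0.29; limma, adjusted p = 0.223). In apices it stood at 20.005 to 27.3 CPM in Col0 and 17.6 to 21.7 in pol2a (17.2 to 20.4 in ld, 21.01 to 24.2 in ld pol2a), with a log2 change of -0.21 (-0.52 to 0.09; edgeR, adjusted p = 0.436). TK1b was at a signal of 187 to 220 in Col0 and 220 to 243 in pol2a, with 398 to 427 in ld and 891 to 1006 in ld pol2a, and its rise of 0.20 ± 0.07 passed on the spike-in scale (limma, adjusted p = 0.0245). That call did not hold without Col0 library 1 (adjusted p = 0.0796) or 2 (0.113), or pol2a library 2 (0.110). Relative to the shift of all genes the TK1b value was 0.14 (-0.01 to 0.30; limma, adjusted p = 0.104), which passed without Col0 library 3 (0.220, adjusted p = 0.0181), and in apices by -0.31 (-0.59 to -0.03; edgeR, adjusted p = 0.198).

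On the spike-in scale most genes moved together in the seedling comparisons other than pol2a against Col0. Each seedling comparison was therefore also fitted after setting the median change to about 0, called relative to the shift. On that scale the pol2a changes in set 2 were 2.74 for TSO2, 1.89 for TK1a, 0.92 for RNR1 and 0.07 for RNR2A. Of the 5 genes, 3 were called higher in pol2a of set 2 relative to the shift, where 59.9% of 19444 genes were called in either direction, and 4 on the spike-in scale (59.2% of genes called, median shift 0.06). In apices 3 of 5 were called, against 6.04% of 18705 genes. In pol2a of set 2 most genes were called in either direction, so a count of calls there is near the background. Genes called higher were 30.0% of those tested relative to the shift, 34.0% on the spike-in scale and 3.70% in apices.

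**Figure D2:**
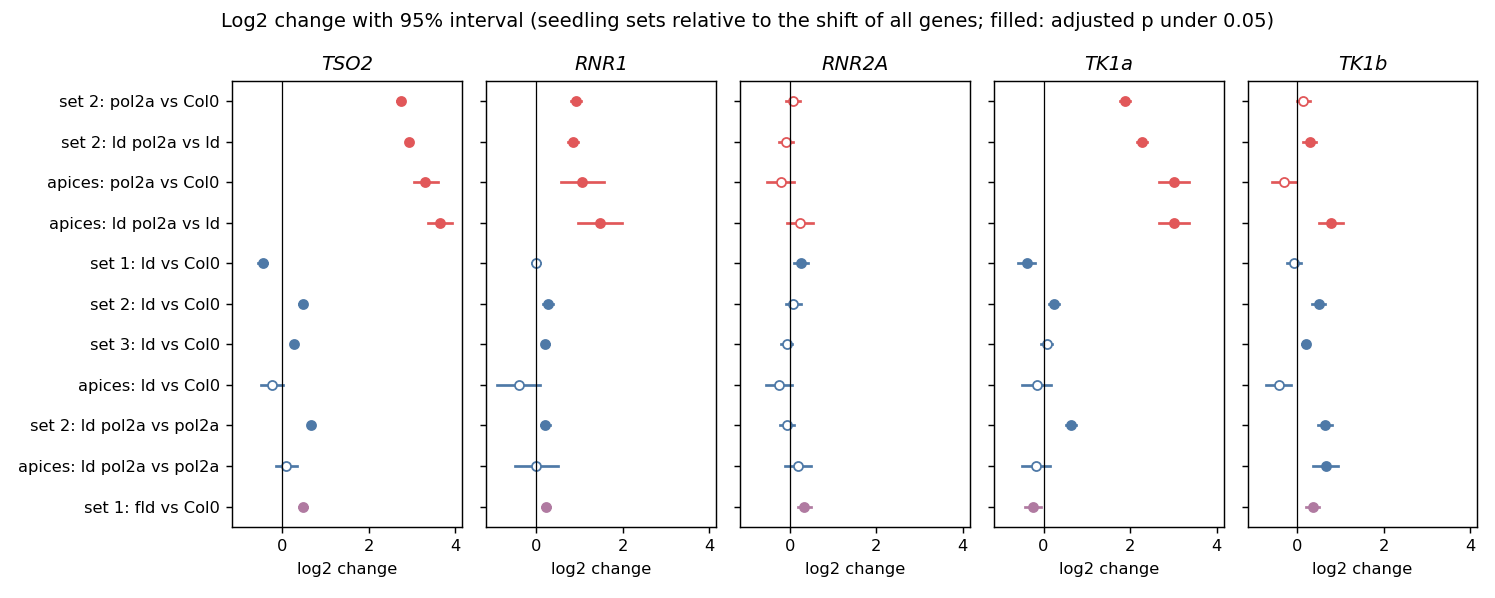
Log2 change of each gene with its 95% interval, by comparison, for seedlings relative to the shift and for apices from edgeR; filled points have an adjusted p under 0.05. Red points give the effect of pol2a, blue of ld and purple of fld. TSO2 and TK1a lie between 1.89 and 3.64 in all 4 pol2a comparisons, and RNR2A between -0.21 and 0.24.

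The effect of pol2a was also measured where ld was mutant. Against ld, ld pol2a had TSO2 higher by 2.93 (log2, relative to the shift) in set 2 and by 3.64 in apices. TK1a was higher by 2.28 and 3.01, and RNR1 by 0.86 and 1.48 (limma adjusted p = 3.06e-22, 1.04e-17 and 3.1e-11 in set 2; edgeR adjusted p = 1.06e-08, 3.72e-07 and 0.000732 in apices). TK1b was called as well, by 0.29 in set 2 (limma, adjusted p = 0.00247) and 0.78 in apices (edgeR, adjusted p = 0.000978), and RNR2A was not (log2 -0.08 and 0.24). That is 4 of 5 genes in each table, against 60.2% of genes called in set 2 relative to the shift and 34.0% in apices. On the spike-in scale, where 95.1% of genes were called, all 5 were higher. The comparisons of pol2a with and without ld share no libraries within a table.

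The double mutant was also set against Col0 and against pol2a. Against Col0, ld pol2a of set 2 had all 5 genes higher on the spike-in scale (98.3% of genes called), and 4 relative to the shift (57.5% called): TSO2 3.40, TK1a 2.52, RNR1 1.14 and TK1b 0.77. The calls were split as 19041 higher of 19109 on the spike-in scale and 5676 higher of 11184 relative to the shift. In apices 3 of 5 were called in ld pol2a against Col0 (25.7% of genes), with TSO2 at 3.41, TK1a at 2.84 and RNR1 at 1.08. TK1b was at 0.35 (edgeR, adjusted p = 0.0655) and passed without Col0 library 1 (0.452, adjusted p = 0.0391). These comparisons share the Col0 libraries of their table with the others. Against pol2a, ld pol2a of set 2 had all 5 higher on the spike-in scale (98.3% of genes called). Relative to the shift 4 were called (54.3% of genes), with TSO2 at 0.66, TK1a and TK1b both at 0.63 and RNR1 at 0.22. In apices 1 of 5 was called there, TK1b at 0.66 ± 0.13 (edgeR, adjusted p = 0.00664; 14.3% of genes called), and the TSO2 value was 0.10 (-0.15 to 0.35).

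The difference between the effect of ld with pol2a and without it was tested as an interaction. Relative to the shift in set 2, TK1a (0.40 ± 0.08; limma, adjusted p = 0.000272) and TSO2 (0.19 ± 0.05; 0.00413) were above 0, 2 of 5 genes against 51.5% of all genes called. On the spike-in scale, 5 of 5 were called and 88.1% of all genes. In apices TK1b alone of the 5 was called, at 1.09 ± 0.18 (edgeR, adjusted p = 0.00631; 7.54% of genes called). TK1b stood at 49.97, 41.4 and 38.2 CPM in apices of Col0, 28.9, 31.4 and 35.7 in ld, 36.8, 36.4 and 31.4 in pol2a, and 48.8, 57.1 and 58.9 in ld pol2a. So by mean ld and pol2a apices lay below Col0, and ld pol2a was the highest of the groups, overlapping with Col0 by 1 library. None of these TK1b differences from Col0 was called with all libraries (edgeR, adjusted p = 0.115 in ld, 0.198 in pol2a and 0.0655 in ld pol2a). TSO2, RNR1, RNR2A and TK1a had apex interactions of 0.33, 0.41, 0.45 and -0.01, none past the threshold.

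The genes of each pair were then compared within libraries, which takes out the scale factor. The log2 ratio of TSO2 to RNR2A was 1.09 ± 0.10 in Col0 of set 2, 3.77 ± 0.11 in pol2a, 1.49 ± 0.02 in ld and 4.49 ± 0.09 in ld pol2a. In apices it was 1.83 ± 0.14, 5.35 ± 0.15, 1.84 ± 0.04 and 5.24 ± 0.12 in the same order of genotypes. Averaged over 4 strata, pol2a raised this ratio by 3.15 (log2), in 4 of 4 strata (exact two-sided permutation within strata, adjusted over 6 ratio tests p = 2.5e-05; unadjusted 1.25e-05, the smallest these permutations give). The ratio of TSO2 to RNR1 rose by 2.05 and that of TK1a to TK1b by 2.32, in 4 of 4 strata each, with the same exact adjusted p of 2.5e-05.

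For ld, the mean difference over 6 strata was 0.11 in the ratio of TSO2 to RNR2A and 0.09 in that of TSO2 to RNR1 (exact permutation, adjusted p = 0.22 for both). These means average strata that went opposite ways. TSO2 to RNR2A was -0.70 in set 1, 0.39 in set 2, 0.35 in set 3 and 0.73 in set 2 with pol2a. In apices it was 0.01, and -0.11 with pol2a. TSO2 to RNR1 was -0.44 in set 1 and between 0.07 and 0.45 in the other strata. The ratio TK1a to TK1b fell by 0.20 (exact permutation, adjusted p = 0.0197, lower in 4 of 6 strata). It was -0.82 in apices with pol2a and 0.29 in apices without it, with the other strata between -0.32 and 0.00. That call was lost when replicate 1 (adjusted p = 0.116) or 2 (0.12) was left out.

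Set against exon length, transcripts of the R2 genes were mostly TSO2. TPM (reads per exon length, scaled to a fixed total per library) gave TSO2 a share of 68.1% ± 1.497 of TSO2 plus RNR2A in Col0 of set 2 and 93.2% ± 0.486 in pol2a, and 78.1% ± 1.71 and 97.6% ± 0.249 in apices. TK1a held 43.6% ± 3.74 of TK1a plus TK1b in Col0 of set 2 and 72.1% ± 0.855 in pol2a, and 25.3% ± 2.38 and 77.3% ± 1.56 in apices. Thus TK1b was the more abundant of the thymidine kinase transcripts in Col0 of both tables, and TK1a in pol2a. In ld pol2a apices the share of TK1a was 65.9% ± 2.17, below that of pol2a. R2 transcripts (TSO2 plus RNR2A) per RNR1 transcript numbered 2.25 ± 0.064 in Col0 and 5.81 ± 0.0438 in pol2a of set 2. In apices they numbered 2.51 ± 0.543 and 9.15 ± 0.917. The 5 genes summed to 111 ± 4.18 TPM in Col0 and 343 ± 4.79 in pol2a of set 2, and to 202 ± 41.7 and 964 ± 24.8 in apices.

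**Figure D3:**
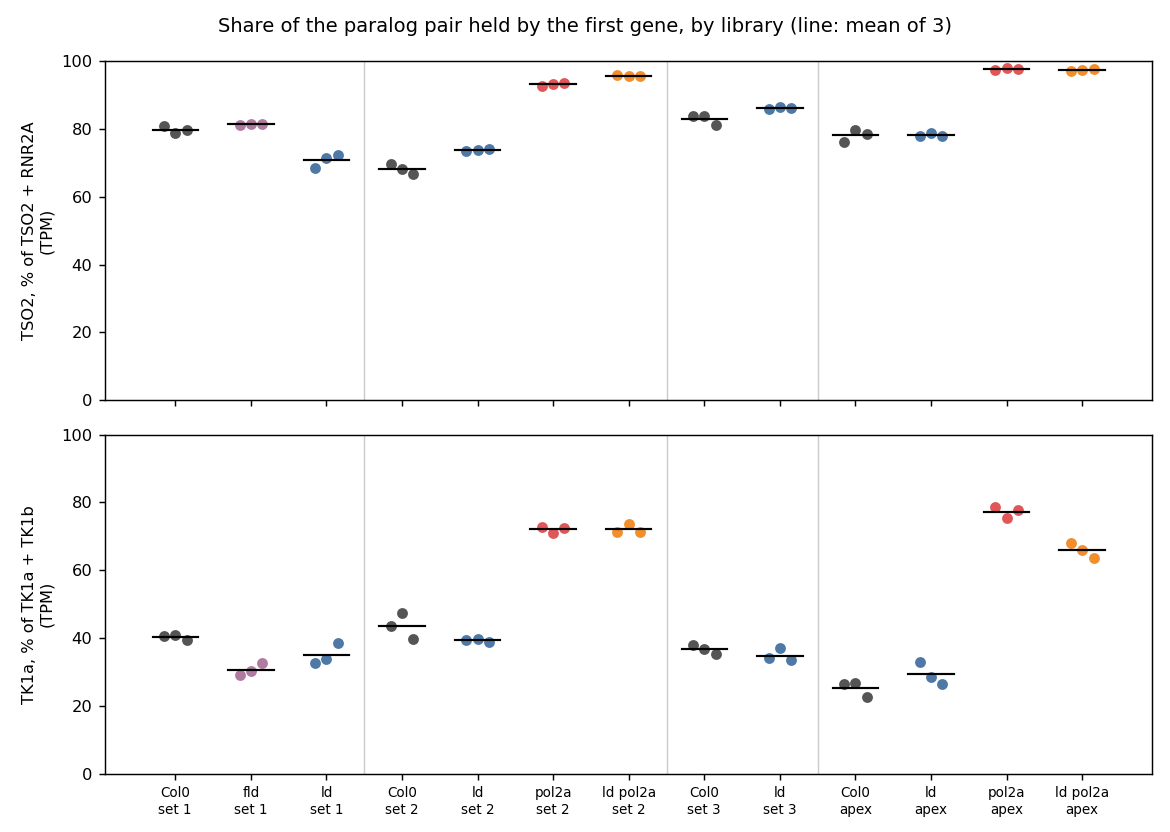
Share of TSO2 in TSO2 plus RNR2A (upper) and of TK1a in TK1a plus TK1b (lower), in % of summed TPM, for each library of the 13 groups; lines are means of 3 and tables are parted by grey lines. The lowest TSO2 share in the 4 groups with pol2a is 92.6% and the highest without it 86.3%; for TK1a these are 63.6% and 47.3%.

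A further R2-like locus, RNR2B (AT5G40942), is annotated as a pseudogene and was analysed in the apex table. It stood at 4.004 ± 0.877 CPM in Col0 and 13.8 ± 1.498 in pol2a (log2 1.78 ± 0.20; edgeR, adjusted p = 0.00025). Its reads may come from an R2 paralog and are reported as uncertain.

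In ld the direction relative to the shift was not the same in every seedling set. On the spike-in scale all 5 were higher in ld of each seedling set, with most genes (97.6%, 81.5% and 94.9% of genes called in sets 1, 2 and 3, medians 1.23, 0.56 and 0.69). Relative to that shift, TSO2 lay below it in set 1 (-0.45 ± 0.05; limma, adjusted p = 9.65e-08) and above it in set 2 (0.47 ± 0.04; 3.62e-09) and set 3 (0.28 ± 0.03; 6.02e-05). TSO2 signal on the deposited scale was 317 to 324 in Col0 and 497 to 600.05 in ld of set 1, and 1422 to 1537 and 2888 to 2949.6 in set 3. In set 1 RNR1 stood at 269 ± 6.73 with Col0 and 634 ± 22.5 with ld, and in set 3 at 1066 ± 29.3 and 1990.1 ± 100.7 (SD, n = 3). Each gene's ld libraries lay above its Col0 libraries on that scale in both sets, where 97.1% and 94.4% of all genes were called higher. TK1a stood at 98.3 ± 3.65 in Col0 and 178 ± 24.3 in ld of set 1, and at 440.2 ± 17.8 and 746 ± 59.0 in those of set 3. RNR2A was 81.4 ± 5.02 and 230.1 ± 10.6 in set 1, and TK1b 104 ± 4.10 and 235 ± 28.3. TK1a, relative to the shift, lay at -0.39 (limma, adjusted p = 0.00123), 0.24 (0.00237) and 0.07 (0.352) in sets 1, 2 and 3. RNR1 was 0.28 and 0.21 in sets 2 and 3, both called, and -0.01 in set 1. TK1b was -0.07, 0.49 and 0.19, called in sets 2 and 3. RNR2A was 0.26 in set 1, where it was called, and 0.08 and -0.07 in sets 2 and 3. Relative to the shift, 3 of 5 genes were called in set 1 (53.0% of genes), 4 in set 2 (34.5%) and 3 in set 3 (38.5%). In apices none (0 of 5) was called in ld by edgeR or by DESeq2 (0.968% of genes by edgeR), and 1 of 5 had an unadjusted p under 0.05. Library 3 of ld stood apart from libraries 1 and 2 (chi-square per degree of freedom of 64.1 and 43.0, against 6.22 between those), and 2524 genes were called without it, against 181 with it. Col0 library 3 of apices also stood apart, though less far (19.0 and 25.8, against 5.86), and pol2a libraries 1 and 3 were at 24.1. The TK1b value in ld apices was -0.43 (-0.72 to -0.15; edgeR, adjusted p = 0.115), and it passed without ld library 3 (-0.52, adjusted p = 0.0265). The sets were scaled separately, so the difference between them was not tested.

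In fld of set 1 each of the 5 was higher on the spike-in scale, where 99.1% of genes were called. Relative to the shift 4 rose and TK1a fell by 0.25 (limma, adjusted p = 0.0259), with 58.7% of genes called. In fld the signal was 1412 ± 39.0 for TSO2, 1005 ± 24.1 for RNR1, 324 ± 12.1 for RNR2A, 262 ± 30.3 for TK1a and 422 ± 48.3 for TK1b. Relative to the shift TSO2 rose by 0.48 and RNR2A by 0.33, TK1b by 0.35 and RNR1 by 0.24. The TK1a call was lost without Col0 library 1 or 2 or fld library 2 (adjusted p = 0.0877, 0.0592 and 0.157). Between ld and fld, all 5 were lower in ld on the spike-in scale (73.9% of genes called) and 3 relative to the shift (45.4%), TSO2 by 0.93, TK1b by 0.43 and RNR1 by 0.25.

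Among genes with a symbol and a mean of at least 50, the ones most alike were found by the lower of the Pearson correlations over 12 set 2 libraries and 12 apex libraries. These libraries share genotype groups, so the value describes a pattern and carries no test. TSO2 was nearest to TK1a (0.995), PARP2 (0.987) and BRCA1 (0.986), of which PARP2 is a poly(ADP-ribose) polymerase and BRCA1 a repair factor. Among the 3 genes nearest to RNR1 were CMT3 (0.96), a DNA methyltransferase, and SMC2 (0.96), a condensin subunit. TK1b was nearest to the ribosomal protein genes SAC52 (0.931) and emb2386 (0.905) and to OTC (0.909). RNR2A had no near match, with HY2 highest at 0.65.

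Related genes were counted in the same pol2a comparison, where 59.9% of all genes were called in set 2 (30.0% of genes higher) and 6.04% in apices (3.70% higher). Several of the set 2 counts lie near those shares. Of 14 DNA damage genes, all tested in both tables, 11 rose and 1 fell in set 2 relative to the shift, and 11 rose and 0 fell in apices, with medians of 1.70 and 1.79 against 0.00 and -0.01 over all genes. SMR7, a cell cycle inhibitor, rose by 4.44 in set 2 (limma, adjusted p = 2.91e-14) and 5.71 in apices (edgeR, adjusted p = 1.75e-08), and PARP2 by 2.60 in set 2. Of 15 other deoxynucleotide genes tested, 7 rose and 3 fell in set 2 and 2 rose and 1 fell in apices (medians 0.04 and -0.06). DUT1, which removes dUTP, was among the risers at 1.15 in set 2 and 0.80 in apices (edgeR, adjusted p = 0.0179). Of 13 purine genes 9 rose in set 2 and 1 in apices, where ASE1, an amidophosphoribosyltransferase, rose by 0.80 (edgeR, adjusted p = 0.0429). Of 10 pyrimidine genes 6 rose and 2 fell in set 2 and none (0) passed in apices. CTPS1, a CTP synthase, fell by 1.68 in set 2 (limma, adjusted p = 1.6e-18). Of 7 E2F and RBR genes 3 rose and 1 fell in set 2, and 2 rose in apices. Of 13 replication genes 6 rose in set 2 and 1 in apices, where PCNA1, the polymerase clamp, rose by 0.96 (edgeR, adjusted p = 0.00476).

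**Figure D4:**
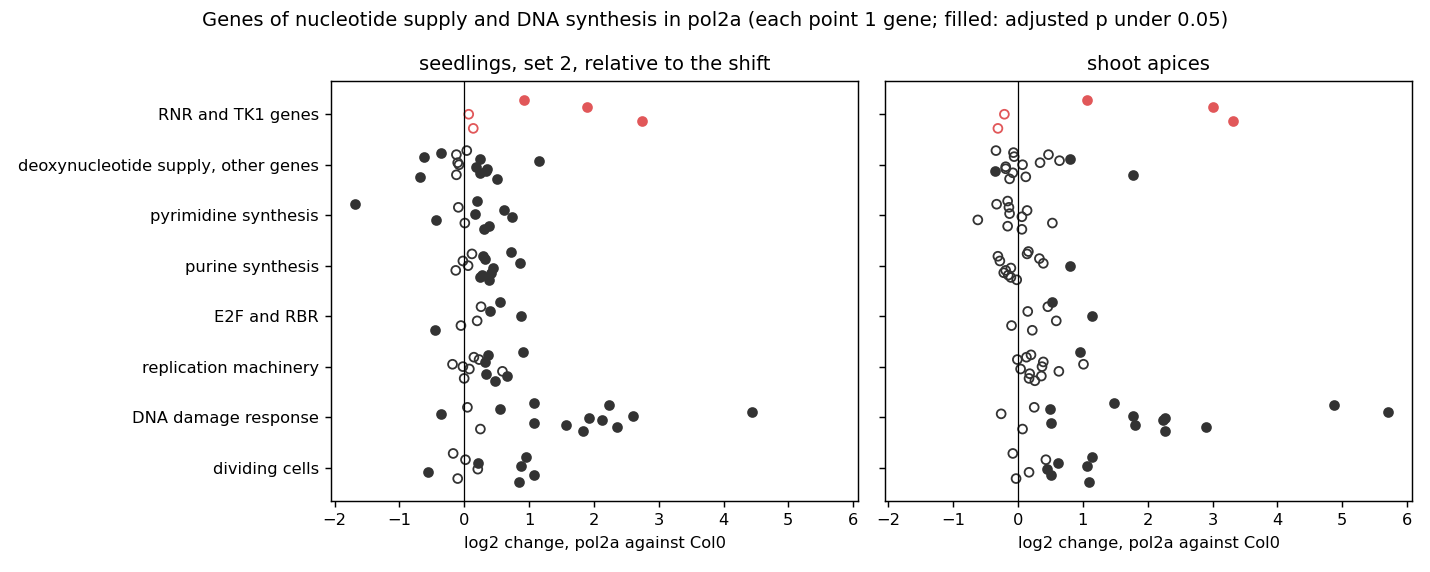
Log2 change in pol2a against Col0 for the 5 genes (red) and 7 lists of related genes (black), in set 2 relative to the shift (left) and in apices (right); filled points passed an adjusted p of 0.05. The DNA damage list spreads to 4.44 and 5.71, and TSO2 and TK1a lie inside its range while RNR2A and TK1b lie near 0.

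In apices the interaction of ld and pol2a, called for TK1b, was also called above 0 for 10 of 13 purine genes (median 0.68), 5 of 10 pyrimidine genes (0.43) and 6 of 15 other deoxynucleotide genes (0.30), and for 0 of 14 DNA damage genes (-0.07). Over all genes 7.54% were called there, 5.13% of genes above 0. PYRD, dihydroorotate dehydrogenase of pyrimidine synthesis, had an interaction of 1.01 (edgeR, adjusted p = 0.00355), GMPS, GMP synthase, 0.77 (0.00895), and dNK, deoxynucleoside kinase, 0.80 (0.00712). In set 2 relative to the shift the purine genes had 2 called above and 5 below 0, with 51.5% of all genes called. Over all genes the apex median was -0.03.

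Markers of other cells and of cell state moved with pol2a and with ld, and their part in the results was not tested. The 10 dividing-cell genes summed to 745 to 844 CPM in apices of Col0, 619 to 722 in ld, 1139 to 1509 in pol2a and 1356 to 1551 in ld pol2a. In set 2, relative to the shift, they summed to 3230 to 3477 in Col0 and 4828 to 5099 in pol2a. The 6 shoot meristem genes summed to between 10.04 and 12.4 CPM in Col0 apices and between 23.1 and 24.9 in pol2a. The 8 root genes summed to between 996 and 1116 in Col0 of set 2 and between 382 and 410.03 in pol2a. In bulk samples, more cells of a type and more RNA per cell cannot be told apart. Summed green leaf markers in set 2 were 283346 to 290297 in Col0 and 416292 to 429337 in pol2a, with none of these at 0. Of the 5 green leaf genes 3 rose and 2 fell there relative to the shift, LHCB1.1, a light-harvesting protein, by 1.02 (limma, adjusted p = 5.79e-14). In ld they summed to between 413571 and 427018 in set 2, with 5 of 5 called higher (34.5% of all genes called relative to the shift). In ld of set 1 they summed to between 247361 and 253227 against 281074 to 296165 in Col0. There 4 were called lower and 1 higher (53.0% of all genes called), so the green leaf sums lay on opposite sides in these sets. Dividing-cell sums were higher in ld of both sets. They were 3165 to 3244 in ld and 2410 to 2504 in Col0 of set 1, and 3831 to 3909 in ld of set 2. Root sums were lower in ld of both sets. They were 884 to 926 in ld and 1086 to 1213 in Col0 of set 1, and 720 to 754 in ld of set 2. In apices the green leaf sum was 44430 to 58280 CPM in Col0 and 33707 to 37987 in ld pol2a. Of 8 root genes 3 were at 0 in all pol2a apices, and of 6 shoot meristem genes 1 was at 0 in Col0 of set 2.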

How the data were processed

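Gene counts of the 12 apex libraries were deposited raw. The seedling tables hold a normalised signal. Each library's values were whole multiples of 1 step, as with counts divided by a single size factor. No source used here says how the spike-in set that factor, or if the counts were adjusted before it. Trimmomatic 0.38, HISAT2, SAMtools 1.9, featureCounts, deepTools and DESeq2, with build TAIR10, are named per the submitters' processing notes, without roles. All values came out whole (within 0.1 reads) after division by that step, taken as 1 read, which gave reads and TPM. Adjusted counts rounded to whole numbers would look the same, so seedling reads and TPM rest on that reading.

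Signal was tested with limma 3.58.1 on log2(signal + 1), keeping genes whose mean signal reached 10, as deposited and after median-of-ratios scaling; such folds understate change in low genes. Counts were tested with edgeR 4.0.16 (TMM, filterByExpr, quasi-likelihood), the SE being the coefficient over the root of F. All groups of a table shared a fit, p-values were Benjamini-Hochberg adjusted over all genes tested, and the threshold was 0.05. Tables were scaled separately and compared only within a table. Ratios used exact permutation within strata. Fits were tested on simulated data with 200 changed genes. R was 4.3.3 and Python 3.11.15.

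The 5 genes and the lists were chosen with earlier results of these data known. Beside these genes, the text names LD, FLD and POL2A, up to 3 genes per list with the smallest p in the comparison described, and the 3 nearest genes by likeness, of which some are not reported here. Symbols, positions and sequences are from RefSeq, TAIR10.1. Protein sequences were not used here. Depth limits precision, and shares of TPM carry the spread over libraries only.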

Additional observations from a re-analysis of the deposited data

Results flagged for a closer look

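The interaction of ld and pol2a was called for some of the genes. In set 2 on the spike-in scale it was 1.06 for TSO2, 0.80 for RNR1, 0.72 for RNR2A, 1.27 for TK1a and 1.01 for TK1b (log2; limma, adjusted p of at most 9.38e-06). There the median of all genes was 0.86 and 88.1% of genes were called, so these calls follow the shift of most genes. Relative to that shift it was called for TSO2 (0.19) and TK1a (0.40), with 51.5% of genes called. It was not called there for RNR1 (-0.07), RNR2A (-0.14) or TK1b (0.14). In apices the interaction was 1.09 for TK1b (7.54% of genes called), between 0.965 and 1.156 with each of the 12 libraries left out, and called in each of those fits.

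In ld against Col0, relative to the shift, some genes lay on opposite sides in different sets, with no overlap between ld and Col0 libraries. Over all genes, 53.0% were called in set 1, 34.5% in set 2 and 38.5% in set 3, in both directions. How many of all genes turned between sets or did not overlap was not counted, so how unusual these cases are is not known. TSO2 was at -0.45 in set 1, 0.47 in set 2 and 0.28 in set 3, and TK1a at -0.39 in set 1 and 0.24 in set 2. The TK1a call in set 2 did not hold with libraries scaled to equal total signal (0.116; limma, adjusted p = 0.109). The difference between sets was not tested.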

How the results depend on the processing

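Of 354 alternative values for answers to comparisons, 348 were classed as the same. For a ratio this meant the same direction and side of the threshold, which 1491 of 1530 values for single genes also kept. For a count of called genes it meant a close count with no called gene turned, so single calls could be lost or gained. With a library left out, that count was 2 to 3 in pol2a against Col0 apices and 4 to 5 in fld of set 1 relative to the shift. The ld effect on the ratio of TK1a to TK1b lost its call in apices alone (-0.265, adjusted p = 0.338) and with pairs by replicate number as a block (-0.204, adjusted p = 0.0527), and ranged from -0.220 to -0.188 with a replicate left out. The ld effect on TSO2 to RNR2A turned to -0.050 in apices alone (exact permutation, adjusted p = 0.49). Of the 5 genes, 0 to 1 were called in ld apices with a library left out. Among single genes, scaling to equal total signal turned RNR1 (0.114, adjusted p = 0.0354 by limma) and TK1b (0.048) in ld of set 1, RNR2A in ld (-0.035), pol2a (-0.019) and ld pol2a (-0.073) against Col0 of set 2, and the set 2 interaction of RNR1 (0.057). It also ended the calls of TK1a in fld of set 1 (-0.126, adjusted p = 0.250 by limma) and in ld of set 2 (0.116, adjusted p = 0.109), and added that of the set 2 interaction of TK1b (0.268, adjusted p = 0.0388). RNR1 in ld of set 1 was 0.007 by edgeR on recovered reads, and in ld pol2a against pol2a apices -0.004 by DESeq2 and -0.005 with RLE scaling. With a library left out, ranges that crossed 0 were -0.068 to 0.104 (RNR1, ld pol2a against pol2a apices), -0.030 to 0.018 (RNR1, ld of set 1), -0.113 to 0.137 (RNR2A, ld pol2a against Col0 apices), -0.042 to 0.071 (RNR2A, ld pol2a against Col0 of set 2, relative) and -0.176 to 0.138 (TK1a, apex interaction). The causes were not tested. edgeR on recovered reads called as many of the 5 genes in all 10 relative comparisons, with 6931 to 12166 genes called in each. Over all genes, calls in ld apices numbered 181 with edgeR, 809 with DESeq2 and 2524 without ld library 3. In no table did every same-numbered pair correlate above 0.1 (range -0.61 to 0.56), so the numbers were not taken to pair libraries. In apices the median was 0.23, against -0.087 for other pairs. The replicate block changed none of 26 counts in the fits across genes. Set 1, with 10.4 to 14.4 (1e6 reads per library), was the shallowest seedling set.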
